A study of Mus musculus with 28 samples.

Results

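The genes of the cytosolic ribosomal proteins were taken from all libraries of a study of the cerebral cortex of mice in which 1 gene was deleted in astrocytes. A gene belonged to the set if it was protein-coding and its symbol was Rpl or Rps followed by a digit, or was Rplp0, Rplp1, Rplp2 or Rpsa, with kinases of the Rps6k family and pseudogenes left out. Of the 53342 gene identifiers in each of the 3 count tables, 86 met this rule. By their names, 43 encoded proteins of the large 60S subunit, 31 encoded proteins of the small 40S subunit, 3 encoded the acidic stalk proteins, and 8 were paralogues of a subunit gene. The last, Rps19bp1, encodes a nucleolar protein that binds Rps19 and is not itself a subunit.

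Conditional knockout (cKO) mice carried loxP sites on both alleles of the targeted gene and expressed Cre recombinase from the mouse GFAP promoter. Control (Ctrl) mice were littermates of matching sex with either 1 or 2 floxed alleles, and the methods list no Cre driver in their genotype. Bulk RNA-Seq of cortex compared 4 cKO with 4 Ctrl mice at postnatal day 24 (P24) and another 4 with 4 at P17. For translating ribosome affinity purification (TRAP-Seq), 3 mice of each genotype at P24 also carried an EGFP/Rpl10a fusion protein that Cre switches on, and each mouse gave an Input library and an immunoprecipitated (IP) library. The IP from Ctrl mice holds tagged ribosomes only if Cre was active there, and the study's text names the same GFAP driver for the tagged mice without a separate genotype for these Ctrl mice. Both cortices of a mouse were dissected for TRAP-Seq. Each library came from 1 mouse, so n counts mice.

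The 60S subunit joins amino acids, the 40S subunit reads the codons of the mRNA, and the stalk proteins Rplp0, Rplp1 and Rplp2 form the arm of the large subunit to which elongation factors bind. Cells make the subunit proteins in matched amounts, in part because most of their mRNAs begin with a cytosine followed by a run of pyrimidines, the 5′ terminal oligopyrimidine (TOP) motif, through which the mTOR pathway and the RNA-binding protein Larp1 set their translation. Astrocytes translate mRNAs in the cell body and in fine processes near synapses. In TRAP-Seq the RNA that travels with tagged ribosomes is sequenced, so a ribosomal protein gene is read in it as a translated mRNA like any other, and not as a part of the ribosome.

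The starts of several of these genes, among them paralogues and the gene of the tag, are shown because the set is known for a feature there. Some of the windows shown carry it and others do not. RefSeq promoters of GRCm38.p6 were found for 66 of the 86 genes. Each window holds 20 bases before and 10 bases from the annotated start, on the strand of the gene, and capitals run from the C nearest to the start that is followed by at least 4 bases that are each C or T to the end of that run. Pyrimidines before this C can belong to the same run and are left in lower case.

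Rps27, chr3:90213639-90213668, minus strand: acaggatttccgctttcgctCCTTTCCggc
Rps27l, chr9:66946066-66946095, plus strand: cctctccactcctccccgccgCCTCTatcc
Rps27rt, chr9:114982730-114982759, minus strand: ggttaagaacttatcccttgCTTTCCggcg
Rpl34, chr3:130730389-130730418, minus strand: cgcgccgccttccctgacgtaCTTCCTgtc
Rplp2, chr7:141447631-141447660, plus strand: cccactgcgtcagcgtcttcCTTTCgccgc
Rps6, chr4:86857358-86857387, minus strand: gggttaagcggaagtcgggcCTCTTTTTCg
Rpl10a, chr17:28328451-28328480, plus strand: gcgtggtggcgccCCCCCagcggccgcaaa
Rps4x, chrX:102189382-102189411, minus strand: aaagtctgaggctgggcggagcaacccagg
Rplp0, chr5:115559447-115559476, plus strand: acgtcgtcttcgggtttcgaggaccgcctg

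In Rps27, Rps27rt, Rplp2 and Rps6 such a C lay on the annotated start, and in Rps27l and Rpl34 it lay 1 base after it. In Rpl10a the nearest such C lay 7 bases before the start, inside a longer run of C, and in Rps4x and Rplp0 none lay within 10 bases. Such a C within 1 base of the start, called a tract at the start from here on, was found in 19 of the 66 members with a promoter (28.8%), against 6.3% of all 27025 promoters. Within 10 bases the shares were 56.1% and 30.8%. The search read the gene strand only, and an annotated start can differ from the start used in astrocytes, so a window without a tract says only that these letters were not found there.

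The libraries held between 8855488 and 11454729 counts in the P17 bulk set, between 12603888 and 14575306 in the P24 bulk set, and between 18433087 and 27242445 in TRAP-Seq. Levels are given as CPM, counts scaled to the same library total, after trimmed mean of M-values (TMM) normalisation unless library size is named. All 9 astrocyte markers were higher in IP than in Input of Ctrl mice, with a median log2 difference of 3.72, and 8 of 9 neuron markers were lower, with a median of -1.76. The Input library of cKO replicate 1 stood apart from all other Input libraries. It gave 1.34% of its counts to the set against 0.667% to 0.72% in the other 5, hemoglobin transcripts summed to 779 CPM against 142 to 257, and its TMM factor was 0.866 against 0.98 to 1.04. Results that use this library are therefore given with it and without it.

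The 86 genes together took a small share of the counts, which was highest in the IP (plot of shares by library). At P24 the share in bulk cortex was 0.487%, 0.456%, 0.472% and 0.525% in the 4 Ctrl mice and 0.477%, 0.523%, 0.55% and 0.524% in the 4 cKO mice, ranges that overlapped. At P17 it was 0.627% ± 0.0512 (SD, n = 4) in Ctrl and 0.628% ± 0.0301 (SD, n = 4) in cKO. In the IP it was 1.48%, 1.37% and 1.19% in Ctrl mice and 1.95%, 2.10% and 1.68% in cKO mice, so that the lowest cKO library lay above the highest Ctrl library. The mean share was thus 1.42-fold higher in the IP of cKO mice by library size and 1.51-fold higher after TMM scaling. This summed share is a description of a chosen set and was not tested. It leaves out counts placed on pseudogenes of these genes.

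**Figure D1:**
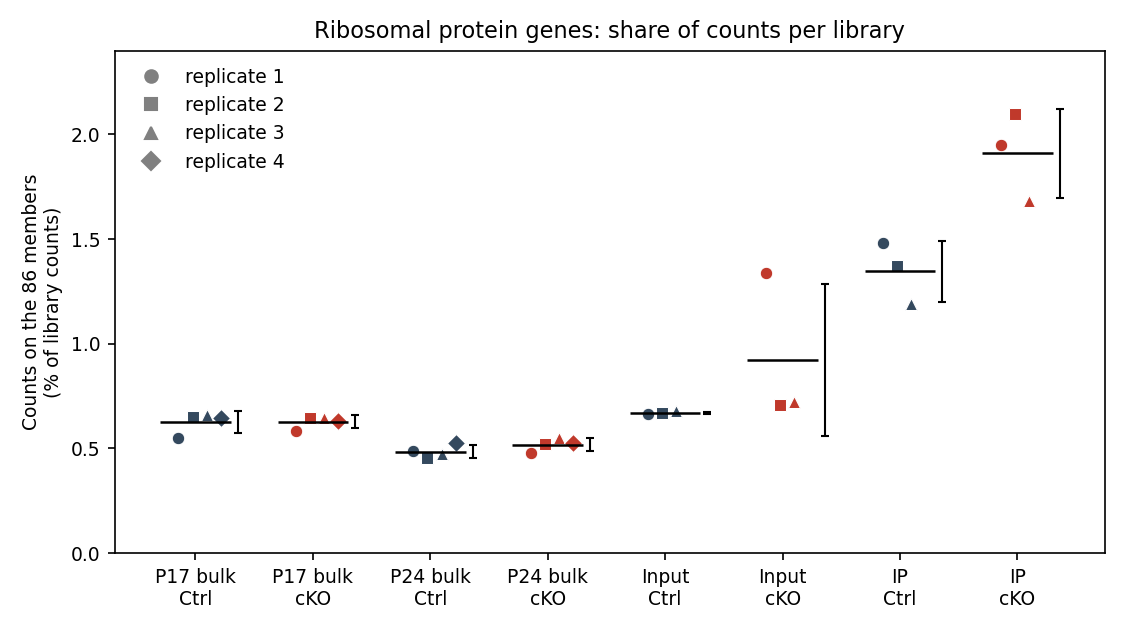
Percent of the counts of each library that fell on the 86 cytosolic ribosomal protein genes, by group, with 1 point per mouse and a line at the group mean. The 3 IP libraries of cKO mice (1.68% to 2.10%) lie above the 3 of Ctrl mice (1.19% to 1.48%), and 1 Input library of a cKO mouse lies at 1.34%.

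Levels differed widely among the members when CPM was divided by exonic length, here the union of all annotated exons of a gene. This length can exceed that of the mRNA, and reads can be split with pseudogenes. The order of levels can therefore reflect annotation and mapping as well as expression. Rplp1, a stalk protein, was the highest in every group, with a median of 527 CPM per kilobase in the IP of Ctrl mice (468 to 558). Rpl41, the smallest protein of the large subunit, followed at 416 (356 to 433), and Rps15, a 40S protein, at 394 (331 to 423). The ranges of Rpl41 and Rps15 overlapped, and that of Rplp1 stood clear of both. In P24 bulk cortex of Ctrl mice the medians of the same genes were 517, 186 and 185 CPM per kilobase. At the other end, Rpl10l, Rpl39l and Rpl3l, whose parents are Rpl10, Rpl39 and Rpl3 and which are known from testis or muscle, were near 0 everywhere. Rpl10l had at most 1 count in any library of Input and none in the IP, where 3 counts, the limit that a count of 0 allows, correspond to at most 0.129 CPM. That limit covers counting error only. Rpl10l and Rpl39l were not tested in any TRAP-Seq comparison, and Rpl3l was left untested in bulk as well, because their counts were too low.

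Genes of this family share nearly their whole coding sequence with processed pseudogenes, and the counting tool, its handling of reads that map more than once and its use of strand are not given in the sources used here. A total of 666 annotated pseudogenes were at least 95% identical to a member, and 80 of the 86 members had at least 1. In the IP of Ctrl mice, Rpl23a took 162 CPM and its 20 near-identical pseudogenes 1310 CPM, so the gene itself held 11% of the family. Rps4x held 43.7%, Rplp0 62.6% and Rpl7l1 88.8% of theirs. Over the 79 members with copies counted in that group, the median was 29.5%, and 60 held under 50%. Near-identical pseudogenes together took 3.04% to 3.76% of the counts in the IP of Ctrl mice. In the IP of cKO mice they took 4.37% to 5.46%. Rps27l had no near-identical pseudogene. Values of single members are therefore uncertain wherever reads could be split, and the closing section gives the comparisons with pseudogene counts added to their parent.

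In the IP at P24, which samples mRNA on astrocyte ribosomes, nearly all members were higher in cKO than in Ctrl mice. Of 84 members tested, 79 passed an adjusted p of 0.05 in edgeR's quasi-likelihood test with Benjamini-Hochberg adjustment over all 23864 genes, all of them higher in cKO. The share of all genes called higher, here named the background, was 11.6%. The median log2 fold change of the members was 0.61 (range -0.10 to 1.05), against -0.01 for all genes tested. With library-size scaling the count was 73 at a background of 8.39%, and the members' median was 0.50 against -0.13 for all genes. Relative to the median of all genes the members stood 0.63 higher under either scaling. A change of scaling shifts the fold changes of all genes by nearly the same amount, so this equality is no separate support. The scaling turned the balance of all calls, from 2772 higher and 2010 lower with TMM to 2003 higher and 3529 lower with library size. Every cKO library lay above every Ctrl library in 79 members, against 18.3% of all genes. Among the 10187 other genes of comparable level (a mean of at least 4 on the log2 CPM scale), 18.5% were called higher, against 79 of 83 members of that level. When all 12 TRAP-Seq libraries shared 1 estimate of the spread, 12 members passed (background 3.57%), and 78 passed (background 10.6%) once Input of cKO replicate 1 was left out of that fit.

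By role, all 31 proteins of the 40S subunit were higher, with a median of 0.66, as were 41 of 43 proteins of the 60S subunit with a median of 0.59 and all 3 stalk proteins with a median of 0.85. With library-size scaling these medians were 0.54, 0.48 and 0.73. Rps4x, the X-linked 40S protein (ENSMUSG00000031320, GRCm38 chrX:102184941-102189394), was at 271, 232 and 192 CPM in Ctrl mice and at 469, 562 and 384 CPM in cKO mice. All 3 cKO libraries were above all Ctrl libraries, and the log2 fold change of 1.05 (SE 0.16, edgeR adjusted p = 0.00143) was the largest of the set. Rpl23a, a protein at the exit of the peptide tunnel (ENSMUSG00000058546, chr11:78180932-78183584), went from 166, 180 and 141 CPM to 324, 374 and 275 CPM, a log2 fold change of 1.02 (SE 0.13, edgeR adjusted p = 0.000669). Rpl39, a very small protein that lines the same tunnel, went from 110, 96.9 and 95.8 CPM to 178, 219 and 173 CPM, a log2 fold change of 0.94 (SE 0.12, edgeR adjusted p = 0.000583). The groups did not overlap for either gene, and both kept their call under library-size scaling, at log2 fold changes of 0.91 and 0.82.

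**Figure D2:**
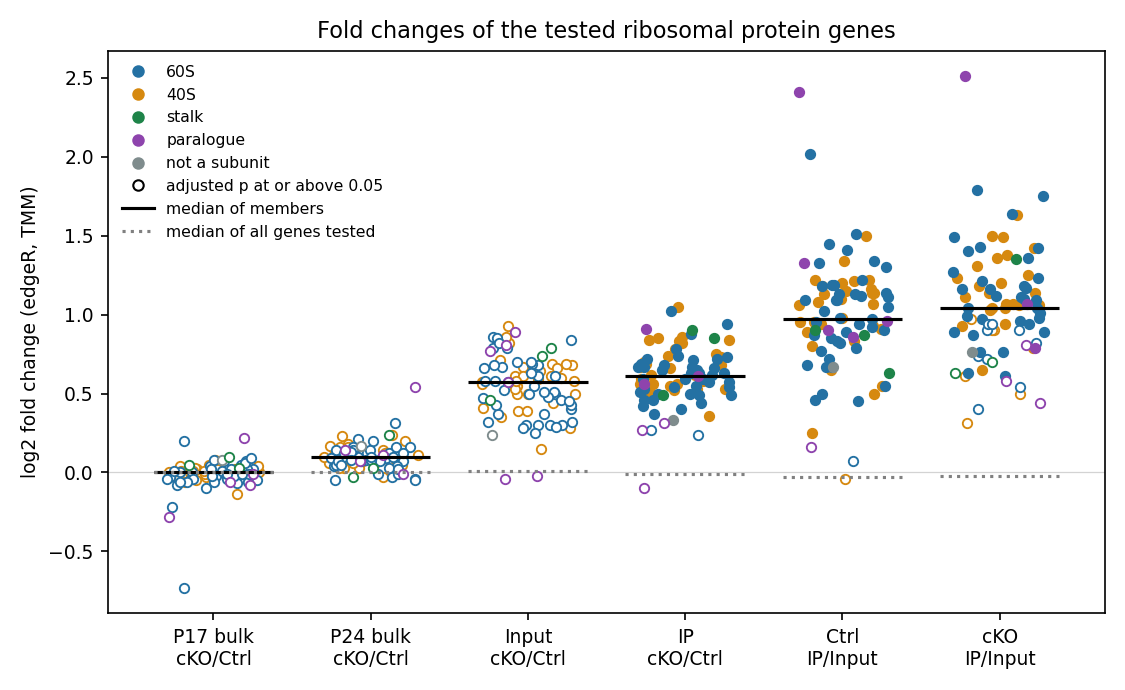
Log2 fold change of each tested member (edgeR, TMM) in the comparisons of cKO with Ctrl mice and of IP with Input, with 1 point per gene and the median as a line. For cKO against Ctrl mice the median is 0.61 in the IP, 0.57 in the Input, 0.10 in P24 bulk cortex and 0.00 in P17 bulk cortex. Without Input of cKO replicate 1 the Input median is 0.05. For IP against Input it is 0.97 in Ctrl and 1.04 in cKO mice.

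The stalk proteins did not move by the same amount. Rplp0, the base of the stalk (ENSMUSG00000067274, chr5:115559467-115563727), rose from 326, 266 and 252 CPM to 463, 646 and 447 CPM, a log2 fold change of 0.90 (SE 0.15, edgeR adjusted p = 0.00279). Rplp1 rose from 278, 263 and 233 CPM to 418, 561 and 397 CPM, a log2 fold change of 0.85 (adjusted p = 0.00218). Rplp2, its partner in the stalk dimer, was at 104, 92.9 and 78.9 CPM and then at 112, 147 and 123 CPM, which gave 0.49 on the log2 scale and an adjusted p = 0.0231 that became 0.0521 under library-size scaling. For all 3 genes the lowest cKO library lay above the highest Ctrl library, for Rplp2 by a narrow margin. Whether Rplp2 differed from the others was not tested. Rpsa, a 40S protein also known as the laminin receptor, rose by 0.82 (SE 0.14, edgeR adjusted p = 0.00234), from 216, 199 and 172 CPM to 335, 402 and 285 CPM.

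Rpl5 and Rpl11 carry 5S rRNA into the large subunit and, when free of it, bind Mdm2 and stabilise p53. Rpl5 was at 200, 186 and 160 CPM in the IP of Ctrl mice and at 280, 277 and 218 CPM in that of cKO mice, for a log2 fold change of 0.53 (SE 0.12, adjusted p = 0.0122). Rpl11 was at 163, 158 and 136 CPM and at 218, 249 and 192 CPM, a log2 fold change of 0.55 (SE 0.12, adjusted p = 0.00831). Both lay a little under the median of the set, and their groups did not overlap.

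Of the 5 tested members that did not pass, Rpl10a is the gene from which the tag was made. It was at 370, 344 and 320 CPM in Ctrl mice and 358, 417 and 424 CPM in cKO mice, for a log2 fold change of 0.24 (SE 0.11, adjusted p = 0.141) that was 0.12 under library-size scaling. Reads of the EGFP/Rpl10a transgene and of the endogenous gene (ENSMUSG00000037805, chr17:28328471-28331033) cannot be told apart in these counts. The others were Rpl7a, a 60S protein, with a log2 fold change of 0.27 (adjusted p = 0.119), and the paralogues Rps27rt, Rpl7l1 and Rpl3l. In each of the 5 the groups overlapped, so these values do not show a difference and do not show its absence.

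The paralogues did not follow their parents in a single way. Rps27l, which is known as a p53 target and resembles Rps27, was at 37.9, 37.7 and 30.9 CPM in Ctrl mice and 66.6, 72.9 and 57.4 CPM in cKO mice (ENSMUSG00000036781, chr9:66946086-66949516). Its log2 fold change was 0.91 (SE 0.12, edgeR adjusted p = 0.000779), while that of Rps27 was 0.36 (adjusted p = 0.0394, and 0.14 under library-size scaling) and that of Rps27rt, a retrotransposed copy of Rps27, was 0.31 (adjusted p = 0.0992). In the IP of Ctrl mice Rps27rt held 157, 125 and 121 CPM and Rps27 held 54, 43.4 and 46.6 CPM. Rps27rt is annotated as protein-coding, so adding pseudogene counts does not cover it. Whether reads were split between these genes was not tested. Rpl22l1 rose by 0.56 and its parent Rpl22, a protein not needed for a working ribosome, by 0.63, and Rpl36al rose by 0.61 and Rpl36a by 0.88. Rpl7l1, which acts in ribosome assembly, was at 103, 107 and 88 CPM and then at 101, 85.3 and 87.6 CPM, a log2 fold change of -0.10, while its parent Rpl7 rose by 0.50 (adjusted p = 0.0141). Rps19bp1 passed with TMM at a log2 fold change of 0.33 (adjusted p = 0.0459) and not by library size (adjusted p = 0.184), and Rps19, mutated in Diamond-Blackfan anemia, rose by 0.86. The differences between paralogue and parent were not tested.

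**Figure D3:**
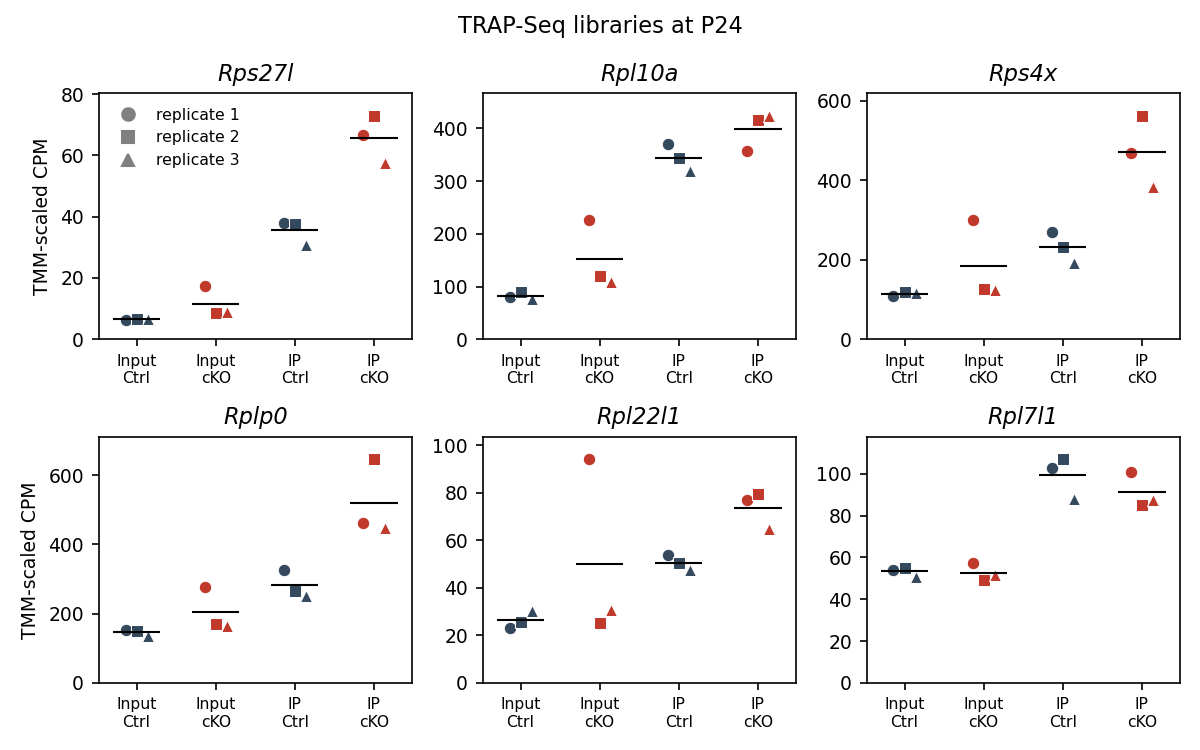
TMM-scaled CPM of named members in the 12 TRAP-Seq libraries at P24, with 1 point per mouse and groups of 3 mice for Input and IP of Ctrl and cKO. Rps4x and Rps27l separate cKO from Ctrl in the IP, Rpl7l1 and Rpl10a do not, and the Input library of cKO replicate 1 lies above the other Input libraries.

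Ribosomal protein mRNAs are short, so the length of the transcript was looked at beside these values. In the IP of cKO against Ctrl mice, the median log2 fold change of other protein-coding genes fell with exonic length, from 0.14 in genes of up to 1000 bases through 0.12, 0.00 and -0.08 to -0.15 in genes over 8000 bases. The members were at 0.68, 0.64, 0.56 and 0.63 in the first 4 of these classes, holding 12, 36, 30 and 6 genes. In each of these classes the members' median lay above that of the other genes. Exonic length can exceed the length of the mRNA, and Rps15a, for example, was put at 6270 bases. These classes therefore do not match members to genes with mRNAs of equal length. The part of transcript length in the result was not tested. None of 9 neuron, 7 microglia, 6 oligodendrocyte or 3 tested endothelium markers was higher in the IP of cKO mice, and 2 neuron markers were lower, Tubb3 by 0.58 and Syp by 0.43 (4 by library size). Hemoglobin transcripts summed to 50.2, 107 and 46.6 CPM in the IP of Ctrl mice and to 141, 128 and 61.8 CPM in that of cKO mice, ranges that overlapped, and their part in the result was not tested. Summed astrocyte markers were at 12800 to 16800 CPM in Ctrl and 12600 to 17100 CPM in cKO mice, and summed neuron markers at 2560 to 3090 and 2530 to 2660 CPM. Of the 9 astrocyte markers, Gfap rose by 0.76, and the glutamate transporters Slc1a3 and Slc1a2 fell by 0.95 and 0.71 on the log2 scale.

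**Figure D4:**
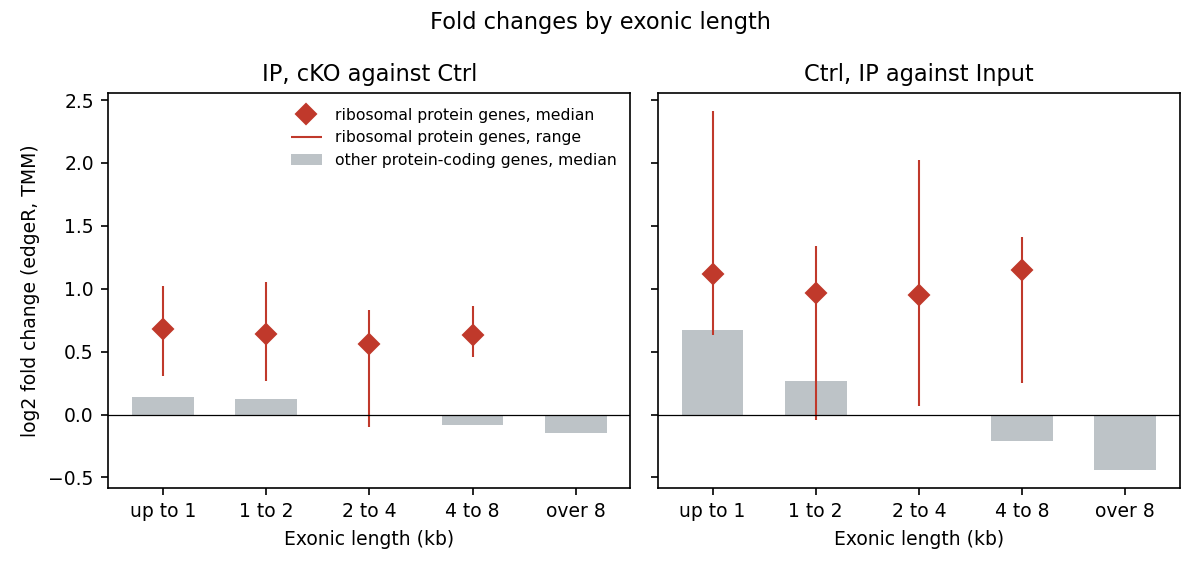
Median log2 fold change by class of exonic length for members and for other protein-coding genes, in the IP of cKO against Ctrl mice and in IP against Input of Ctrl mice. In both comparisons the other genes fall with length, from 0.14 to -0.15 and from 0.67 to -0.44, and the members stay between 0.56 and 0.68 and between 0.95 and 1.15. Exonic length is the union of a gene's annotated exons and can exceed that of its mRNA.

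The comparison of IP with Input in Ctrl mice asks how strongly these mRNAs were represented on astrocyte ribosomes relative to the Input lysate. That Input differed from bulk cortex of Ctrl mice at P24. Summed astrocyte markers were at 1130 to 1380 CPM against 4590 to 5230 CPM in bulk, and endothelium markers at 5.24 to 6.48 against 94.5 to 104 CPM. Neuron markers were at 5900 to 6820 and 6360 to 6710 CPM. The differences below are therefore not relative to whole cortex. Of 84 members tested, 81 were higher in the IP (background 35.3%) and none was lower, with a median log2 difference of 0.97 against -0.03 for all genes, and with library size the count was again 81 (background 37.5%) at a median of 1.06. Every IP library lay above every Input library in 81 members, against 38.1% of all genes. Rps27l was at 6.27, 6.48 and 6.65 CPM in Input and at 37.9, 37.7 and 30.9 CPM in the IP, a log2 difference of 2.41 (SE 0.12, edgeR adjusted p = 1.12e-08), the highest of the set. Rpl10a followed at 2.02, where transgene reads again cannot be set apart. Then came Rpl34 at 1.51, from 18.4, 17.9 and 20.6 CPM to 60, 56.3 and 50.8 CPM, Rps12 at 1.5 and Rpl23a at 1.45.

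At the low end, Rps2, a 40S protein near the mRNA entry channel, was at 83.5, 97.5 and 78.5 CPM in Input and 91.7, 92 and 77.7 CPM in the IP, a log2 difference of -0.04 (adjusted p = 0.793) that was 0.05 under library-size scaling. Rpl3, at the peptidyl transferase center, was at 266, 276 and 257 CPM and 322, 280 and 260 CPM, a log2 difference of 0.07 (adjusted p = 0.576). Together with Rpl3l these were the only members that did not pass. The same length trend was larger here, since other protein-coding genes went from 0.67 in the shortest class to -0.44 in the longest, while the members were at 1.12, 0.97, 0.95 and 1.15. The medians of the 40S and 60S proteins were 1.07 and 0.98.

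In cKO mice the same comparison depended on the Input library that stood apart. With all 3 mice, 64 of 84 members were higher in the IP (background 27.8%) with a median of 1.04, and with library size 72 were higher (background 28.3%) with a median of 1.08. With the mouse as a block, 74 were higher (background 27.3%). Without Input of cKO replicate 1, 83 were higher (background 34.0%) and the median was 1.56. Leaving out Input of cKO replicate 2 or 3 gave 38 members each (background 22.9% and 23.1%), and leaving out IP of cKO replicate 1, 2 or 3 gave 41, 35 and 49 (background 22.4%, 21.7% and 23.0%). Rps27l again led, with Input at 17.4, 8.41 and 8.82 CPM and IP at 66.6, 72.9 and 57.4 CPM, a log2 difference of 2.51 (adjusted p = 8.68e-05) that was 2.90 without the library in question. Rpl23a, Rpl23, Rpl30 and Rps12 followed at 1.79, 1.75, 1.64 and 1.63.

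Between the Input libraries of cKO and Ctrl mice no member passed, with a median log2 fold change of 0.57 by TMM and 0.49 by library size, while edgeR put 4 of 84 members at an unadjusted p under 0.05, against 4.04% of all genes in either direction, and DESeq2 called none. The background shares of adjusted calls were 0.0923% higher and 0.0168% lower. Without replicate 1 of the cKO the median was 0.05 and again none passed (background 0.421% higher). In that library the members were 1.17 higher on the log2 scale than in the other cKO Input libraries, and other protein-coding genes ran from 0.79 in the shortest length class to -0.31 in the longest. What set this library apart was not tested. With it left out, Rpl10a was at 0.47 (edgeR adjusted p = 0.179), where transgene reads again cannot be set apart. Its Input values were 80, 90.5 and 77 CPM in Ctrl mice and 227, 120 and 109 CPM in cKO mice.

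The interaction of fraction and genotype asks whether the effect of the deletion differed between IP and Input. With all 12 TRAP-Seq libraries no member passed (background 0.0388% higher, 0.0194% lower), the median was 0.06 by TMM and 0.03 by library size, and no member was at an unadjusted p under 0.05, nor did DESeq2 call any. These fits did not pair the IP and Input of a mouse. With the mouse as a block no member passed either (background 0.0155% higher), at a median of 0.16 with 74 members above 0. Without Input of cKO replicate 1, and again unpaired, 8 members had a larger rise in the IP (background 0.930%) and the median was 0.55. They included Rps4x at 0.91 (edgeR adjusted p = 0.0493), Rpl39 at 0.88 (adjusted p = 0.0229), Rpl30 at 0.66, Rps19, Rps23, Rps26 and Rpl9. Rpl10a and Rpl7l1 were at -0.24 and -0.03 in the same fit, with adjusted p of 0.482 and 0.963. In that fit 4 of 9 astrocyte markers were called lower, with a median of -0.94, and 10 of 93 respiratory chain subunits higher, with a median of 0.38. Astrocyte markers summed to 1130 to 1380 CPM in the Input of Ctrl mice and to 1920 to 2360 CPM in that of cKO mice, and without replicate 1 of the cKO 4 of 9 were called higher there, with a median of 0.83. The part of this in the members' values was not tested. A difference in the effect of the deletion between the fractions was therefore called only when that library was left out.

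In whole cortex the members moved little. At P24, 83 members were tested and none passed (background 1.26% higher, 0.462% lower), with a median log2 fold change of 0.10 against 0.00 for all genes, while 74 members were above 0, against 50.1% of all genes. edgeR put 12 of the 83 at an unadjusted p under 0.05, all higher, against 13.2% of all genes in either direction, and DESeq2 called none after adjustment. The lowest adjusted p was that of Rps25, a 40S protein used by viral internal ribosome entry sites (ENSMUSG00000009927, chr9:44407139-44410427). It was at 35.3, 32.4, 34.3 and 35 CPM in Ctrl and at 37, 40.3, 42 and 41.9 CPM in cKO mice, groups that did not overlap. Its log2 fold change was 0.24 (SE 0.06, edgeR adjusted p = 0.0596, exact two-sided permutation p = 0.0286, the smallest that 4 against 4 mice allow). Because Rps25 was picked from 83 members for its low p, the separated groups and the permutation p are no separate support. With library size the log2 fold change of Rps25 was 0.25 with an adjusted p of 0.0492, and Rps25 was the 1 member called (background 1.39%).

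Rps27l had the largest log2 fold change in P24 cortex, 0.54, with an adjusted p of 0.27. Rplp0 was at 0.24 and Rps4x at 0.23, with adjusted p of 0.216 and 0.149. When cKO replicate 1 was left out, 5 members passed (background 2.85%), namely Rplp0 at 0.33, Rpl18, Rps25 and Rps4x at 0.27, and Rpl23a. Astrocytes are a minor part of cortical cells, and in whole cortex fewer cells of a type and less RNA per cell cannot be told apart. Gfap, the intermediate filament of reactive astrocytes, was 2.51 higher on the log2 scale in the same libraries. Of the 9 astrocyte markers 3 were higher there and 3 lower, among them Slc1a2 and S100b, which both fell by 0.41, and summed astrocyte markers were at 4590 to 5230 CPM in Ctrl and 5000 to 5140 CPM in cKO mice.

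At P17 no member passed in either direction (background 0.0660% higher, 0.0283% lower), the median was 0.00, 39 members were above 0 and 44 below, and DESeq2 called none. edgeR put 1 member in each direction at an unadjusted p under 0.05, against 3.99% of all genes. Rpl30, a 60S protein, was the higher of these at 0.20 (adjusted p = 1). With mice of the same number as a block, Rpl29, a heparin-binding 60S protein, was lower by 0.72 on the log2 scale (adjusted p = 0.00764, background 0.118% lower). Its values were uneven, at 16.3, 18, 1.54 and 23.5 CPM in Ctrl and 9.35, 14.7, 0.968 and 10.7 CPM in cKO mice, so that replicate 3 was far below the others in both groups.

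The interaction of age and genotype in bulk cortex called no member (background 0.0342% higher, 0.0128% lower), with a median of 0.09 by TMM and 0.10 by library size, 2 of 83 members at an unadjusted p under 0.05 (6.33% of all genes in either direction) and none called by DESeq2. Rps25 had the lowest p, with an interaction of 0.27 and an adjusted p of 0.722. The comparisons of cKO with Ctrl mice in the IP and in bulk at P24 and P17 use different mice. Some members with large rises in the IP are set here beside their log2 fold changes in P24 cortex. Rps4x was at 1.05 in the IP and 0.23 in P24 cortex, Rplp0 at 0.90 and 0.24, and Rps27l at 0.91 and 0.54. Over 83 members Pearson's r between IP and P24 cortex was 0.289 and Spearman's rho was 0.228, against an r of 0.391 over all 20662 genes tested in both. For P17 cortex the members' r was 0.0024 with P24 cortex and 0.144 with the IP, against 0.216 and 0.167 over all genes. These are correlations across genes, which are not independent replicates and share reads through pseudogenes.

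Other genes of the translation machinery gave a measure of how far the rise in the IP of cKO mice reached. Fau, whose protein is a 40S subunit protein fused to a ubiquitin-like domain and lies outside the naming rule, was higher by 0.45 (edgeR adjusted p = 0.00874). Of all 23864 genes tested in this comparison, 2772 (11.6%) were higher and 2010 lower, with a median of -0.01. Of 42 translation initiation and elongation factors, 9 were higher and 2 lower, with a median of 0.15. Eif4ebp1, the mTOR-controlled inhibitor of the cap-binding protein, led them at 1.58 (SE 0.11, edgeR adjusted p = 1.92e-05), with 13.8, 15.7 and 16.7 CPM in Ctrl and 48.1, 40.6 and 47.2 CPM in cKO mice. Tpt1, another TOP mRNA, rose by 0.82, and Eif3a and Eif4h fell by 0.40 and 0.32 on the log2 scale. Of 51 ribosome biogenesis factors only 2 were higher, the small nucleolar ribonucleoprotein subunits Nop10 at 0.73 and Nhp2 at 0.45, and 5 were lower, Rrp1 by 0.62 and Noc3l by 0.51, with a median of -0.16. Those 5 are a share close to that of lower calls among all genes. With library size these counts were 7 higher and 2 lower for the translation factors and 2 higher and 11 lower for the biogenesis factors. Of all genes tested, 2003 were higher and 3529 lower with that scaling.

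Proteins of the mitochondrial ribosome and of the respiratory chain lay between these lists and the members. Of 78 mitochondrial ribosomal proteins, 27 were higher (background 11.6%) and none lower, with a median of 0.20, and library size left 17 (background 8.39%). Mrps6 rose by 1.62, from 67.6, 73.9 and 55.7 CPM to 173, 233 and 189 CPM, and Mrpl42 by 0.76. Of 93 tested respiratory chain subunits, 61 were higher and none lower at the same backgrounds, with a median of 0.41, and library size left 46. Cox7a1, a subunit of complex IV best known from heart and muscle, went from 3.22, 3.21 and 3.27 CPM to 20, 17.9 and 21.4 CPM, and Cox6b2 rose by 1.37. In P24 cortex, Eif4ebp1 and Mrps6 were also called, at 1.57 and 1.19, and no other gene of these lists was. The annotated pseudogenes named after members rose with them, 149 of 177 tested with a median of 0.63, and their reads cannot be told apart from those of the parents.

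**Figure D5:**
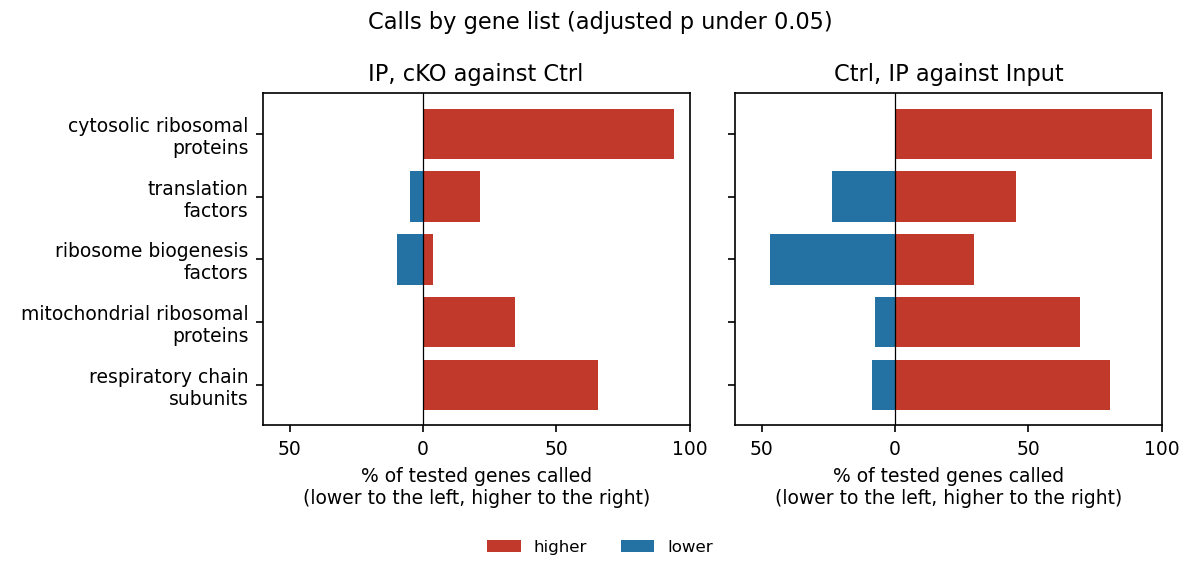
Percent of the tested genes of each list called higher (to the right) or lower (to the left) at an adjusted p under 0.05, in the IP of cKO against Ctrl mice and in IP against Input of Ctrl mice. Of the members 79 of 84 are called higher in the first and 81 of 84 in the second, above each of the other lists plotted, and ribosome biogenesis factors have more lower than higher calls in both. Of all genes tested, 11.6% are called higher in the first and 35.3% in the second. Lower calls there are 2010 of 23864 and 8703 of 24385.

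In IP against Input of Ctrl mice the lists stood in a similar order. Of all 24385 genes tested there, 35.3% were higher and 8703 genes were lower. Translation factors had 19 higher and 10 lower of 42 with a median of 0.16, biogenesis factors 15 higher and 24 lower of 51 with a median of -0.22, mitochondrial ribosomal proteins 54 higher and 6 lower of 78 with a median of 0.51, and respiratory chain subunits 75 higher and 8 lower of 93 with a median of 0.73. Eef1a2, the neuronal form of the elongation factor, was lower in the IP by 2.43 on the log2 scale, and Cox4i2 was higher by 3.15.

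Members with and without a pyrimidine tract within 1 base of the annotated start had overlapping values. An annotated start can differ from the start used in astrocytes, so this split does not sort members by the motif itself. In the IP of cKO against Ctrl mice the 19 members with the tract had a median log2 fold change of 0.56 (0.27 to 0.91) and the 45 tested members without it 0.62 (-0.10 to 1.05). In IP against Input of Ctrl mice the medians were 1.08 and 0.94. Rps4x and Rplp0, whose windows held no tract, were among the largest rises, and Rplp2 and Rps27, which held one on the start, among the smaller. Other members went the other way. Rps27l, with a tract 1 base after the start, was at 0.91, and Rpl7l1, with none, was the lowest at -0.10. The part of the motif in these values was not tested. Mitochondrial ribosomal proteins carried the tract at the start in 7.2% of their promoters, respiratory chain subunits in 9.5%, biogenesis factors in 4.7% and translation factors in 15.2%.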

How the data were processed

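Cortical RNA was measured in 28 libraries, 16 bulk and 12 TRAP-Seq, after reverse transcription with oligo-dT priming (bulk) or oligo-dT purification (TRAP-Seq). The authors aligned reads with STAR, in Galaxy, to mm10, per the submitters' processing notes and the study's methods, and deposited 3 tables of raw counts per gene. The counting tool, its strand setting and the annotation are not given in the sources used here. The bulk columns give the age only through the name of their table. Gene types, symbols and lengths came from GENCODE M21 (GRCm38), which holds 53237 of the 53342 identifiers.

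The members, lists and tests were chosen with earlier results of these data known. Genes were filtered with edgeR 4.0.16 filterByExpr (minimum count 10, total 15, 70% of the smallest group), scaled by TMM and tested with glmQLFit and glmQLFTest in R 4.3.3, two-sided, over all genes of the groups compared, with Benjamini-Hochberg adjustment and a threshold of 0.05. Members were read out of that table. Named were up to 5 members in each direction by size of the change among those past the threshold, the paralogues with their parents, Rpl10a, the stalk proteins, Rpsa, Rpl5, Rpl11, and the 3 members of the highest and of the lowest level per kilobase; of the other lists, 2 genes in each direction. Members named for other values, such as the lowest p, an uneven level or a window at the start, were chosen after their values were seen. Summed shares and medians were not tested. The check of the targeted gene and the values of some single genes are not reported here. Replicate pairs of a group differed beyond sampling noise in all 36 pairs (chi-square per degree of freedom 2.59 to 78.6), so none was treated as a duplicate.

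Alternatives were library-size scaling, relative log expression (RLE) factors, DESeq2 1.42.0, no filter, replicate blocks, leaving out each library, counts of named pseudogenes added to their parent, and all 12 TRAP-Seq libraries in 1 fit. A further 2 were chosen after seeing the data, namely counts of pseudogenes near-identical by blastn 2.17.0 added to their parent, and the TRAP-Seq fit without Input of cKO replicate 1. The labels tie IP and Input libraries of the same number to 1 mouse. The main fits held no term for the mouse. Same-numbered cKO and Ctrl libraries deviated together at P17 (correlations of 0.185 to 0.441) and in the IP (0.105 to 0.243), and did not do so in every pair at P24 in bulk or in the Input. The scripts were tested on simulated counts.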

Additional observations from a re-analysis of the deposited data

Results flagged for a closer look

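In the groups of 4 mice, 140 values of a member or of the summed share were checked, and in 6 of them 1 library lay far from the others by Dixon's test, where chance gives about 5%. At P17, 1 Ctrl library (replicate 1) gave 0.551% of its counts to the set against 0.644% to 0.662% in the others, and Rpl41 was at 258 CPM in 1 Ctrl library against 340 to 351. At P24 in bulk, Rpl10 was at 73.8 CPM in 1 Ctrl library against 61.8 to 63.7, and Rpl30 at 23 CPM against 28.3 to 28.9. Among the P24 cKO libraries, Rpl5 was at 81.1 CPM in 1 library against 90.5 to 92.2, and Rpl3 at 181 CPM against 194 to 195. None of these genes was called in a bulk comparison of cKO with Ctrl mice, also when any 1 library was left out.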

How the results depend on the processing

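The rise of the members in the IP of cKO mice kept its direction under every alternative run, with 64 to 79 called and a median of 0.52 to 0.69 when 1 library was left out. Library size gave 73 calls, and the joint fit of all 12 TRAP-Seq libraries gave 12. Adding near-identical pseudogene counts gave 79 calls (background 10.3%) at a median of 0.62. Adding named ones gave 80 (background 11.1%) at 0.61. In the same order, IP against Input of cKO mice gave 67 and 66 calls (background 27.8% and 27.9%) at medians of 1.09 and 1.06. With either added, no member was called in bulk, between Inputs or in the interactions. With library size, 1 member was called higher at P24 in bulk, and the calls there ran from 0 to 5 when 1 library was left out. The median between Input libraries was 0.05 in the joint fit without Input of cKO replicate 1 and ran from 0.05 to 0.76 with 1 library left out. For IP against Input in Ctrl mice the median was 1.08 with near-identical and 1.09 with named pseudogene counts added, and ran from 0.95 to 1.11 with 1 library left out. In cKO mice it was 1.62 in the joint fit without that Input library, and with 1 library left out the median ran from 0.82 to 1.56 and the calls from 35 to 83. The calls of the fraction by genotype interaction ran from 0 to 8 and its median from -0.15 to 0.55. Where an alternative changed a result and left out no library, the cause was not tested. Rps2 in IP against Input of Ctrl mice, which was never called, changed sign, to 0.05 by library size, 0.04 with near-identical and 0.01 with named pseudogene counts added, 0.04 with no filter, 0.02 in the joint fit without the Input library, and 0.06 and 0.10 without Input Ctrl replicate 2 and IP Ctrl replicate 3, in a range of -0.12 to 0.10 with 1 library left out.

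With the replicate block, 1 member (Rpl29) was called lower at P17 and 74 members were higher in IP against Input of cKO mice. Apart from P17, the block moved no count of called members by over 1.5 times (81 against 79 in the IP). At P24 in bulk and in the Input, where same-numbered libraries did not all deviate together, the block called none, as did the fit without it. Of 1138 values of 74 named results under the alternatives, 1076 kept their direction and side of the threshold, 39 lost a call, 16 gained one and 7 changed sign. Rps19bp1, Rplp2 and Rps27 in the IP lost theirs most often. Shallow counts limit Rpl3l, Rpl10l and Rpl39l, and where groups hold 3 mice, p-values rest on few animals.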
